A study of Mus musculus with 6 samples.

Results

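The clustered histone genes described here were the protein-coding genes whose symbol began with Hist1h, Hist2h, Hist3h or Hist4h in the deposited table, 67 of its 54532 genes. They comprised 6 genes of the linker histone H1, 18 of H2A, 18 of H2B, 12 of H3 and 13 of H4. The Hist1 cluster on chromosome 13 held 54 of them, the Hist2 cluster on chromosome 3 held 10, and 2 lay on chromosome 11 (Hist3) and 1 on chromosome 6 (Hist4). Expression was measured by bulk RNA-seq of total RNA in 6 libraries labelled NIT-1, a cell line from a mouse insulinoma. In the 3 EV_Tm libraries the cells had first received hucMSC-EVs for 16 h, that is, vesicles released by mesenchymal stem cells from human umbilical cord. In the 3 PBS_Tm libraries they had received PBS for the same time. Cells of both groups were then kept in Tm for 8 h. Tm is read as tunicamycin, which blocks N-linked glycosylation and so stresses the endoplasmic reticulum. One label calls the PBS_Tm samples untreated, but their titles and the series design count them among the Tm-treated cells, and no library without Tm was analysed here.

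Nucleosomes wrap DNA around an octamer of H2A, H2B, H3 and H4, and H1 binds the linker DNA between them. Most clustered histone genes are replication-dependent: they are transcribed in S phase under the coactivator NPAT, and their mRNAs end in a conserved stem-loop, bound by SLBP, in place of a poly(A) tail. Some of them can also give longer, polyadenylated transcripts. Replacement variants such as H3.3 and H2A.Z come from genes outside the clusters, are made throughout the cell cycle and have ordinary poly(A) tails. The sources used here do not say whether poly(A) RNA was selected before sequencing.

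The libraries held 28654248 to 32550268 counts each, and 16844 genes had enough counts to be tested. The label beta cell was not borne out by the markers, since 9 of 15 beta-cell markers, Ins2, Iapp and Pdx1 among them, had 0 counts in all libraries, Ins1 had 1 count, and none of the 15 could be tested. Of 10 markers of other islet and acinar cells, Cela1 rose and Bhlha15 fell among 4 tested, and their summed level was 30.8 to 36.3 CPM (counts scaled to a common library size) in EV_Tm and 36.5 to 41.5 CPM in PBS_Tm, with Sst, Cpa1 and Ptf1a at 0. Of 12 fibroblast, endothelial and immune markers 7 were tested, of which Col3a1 and Cd68 rose and Pdgfrb, Col1a1 and Pecam1 fell, and their summed level was 51.7 to 55.2 CPM in EV_Tm and 58.3 to 59.4 CPM in PBS_Tm, with Kdr at 0. The part of these marker genes in the histone results was not tested. Whether replicates came from separate cultures is not stated in the labels, so p-values measure the spread between these samples only.

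Matches to the histone stem-loop in the annotated transcripts are shown first. The stem-loop is the feature that sets replication-dependent histone mRNAs apart from other mRNAs. The counts are per gene and do not show which transcript end the reads came from. A search of the GENCODE M21 transcripts (GRCm38) after the coding end, for 6 bases starting with GG, a loop of 4 bases starting with TT and 6 bases pairing fully with the first 6, found a match in 44 of the 67 genes. In 13 of the 67 the annotation ends with the coding sequence, and Hist1h2af and Hist1h2ah have 1 and 2 bases beyond it. No match was possible in these genes, so its absence there says nothing about their mRNAs. The letters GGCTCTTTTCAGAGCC stood in 26 genes of H1, H2A, H2B and H3. Of the 11 H4 genes with a match, 7 had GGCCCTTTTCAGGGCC. Capitals mark the stem and loop in the examples below, with 5 bases on either side, and the coordinates are those of the capitals.
Hist3h2a (chr11:58955172-58955187, + strand): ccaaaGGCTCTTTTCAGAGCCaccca
Hist2h4 (chr3:96262939-96262954, - strand): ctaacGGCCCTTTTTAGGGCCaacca
Hist1h4h (chr13:23531458-23531473, + strand): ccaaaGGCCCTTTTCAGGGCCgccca
Hist1h4i (chr13:22040966-22040981, - strand): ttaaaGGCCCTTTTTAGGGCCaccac
Hist1h1c (chr13:23739512-23739527, + strand): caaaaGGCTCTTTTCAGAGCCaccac
Hist1h3e (chr13:23561903-23561918, - strand): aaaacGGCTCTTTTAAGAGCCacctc
The annotated transcript continued for 1643 bases after the stem-loop in Hist3h2a, 1257 in Hist2h4, 840 in Hist1h1c and 46 in Hist1h4h. Hist2h2be, the member with the most counts, had 2192 annotated bases after its coding end and no match to this search, which says only that these letters are not in its annotated transcript.

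Few reads were counted for these genes. All 67 together took 0.00316% ± 0.00021 of the counts in EV_Tm and 0.00254% ± 7.08e-05 in PBS_Tm (SD, n = 3 each), which is 869 to 1082 counts per EV_Tm library and 761 to 851 per PBS_Tm library. Of the 67, 12 had 0 counts in every library, 23 had at most 3 counts in any library (these 12 included), and 19 passed the filter on low counts and were tested. The upper limit for a gene without counts is 3 counts, or 0.0922 to 0.105 CPM in a library, and this limit covers counting error only. It need not hold for members that share sequence with another gene or whose exons overlap one. In Hist2h2aa1, Hist2h2aa2, Hist2h2bb, Hist2h3b and Hist2h3c1 100% of the stretches of 100 bases also occur in another gene's annotated transcript. Most stretches do so in 9 of the 12 genes without counts, those just named included. Exons of 9 of the 12 overlap those of another gene. How reads from such sequence were counted is not known. The genes without counts were Hist1h1t, a testis-specific H1, 5 H2A genes (Hist1h2aa, Hist1h2ab, Hist1h2af, Hist2h2aa1 and Hist2h2aa2), Hist1h2ba and Hist2h2bb of H2B, Hist1h3b, Hist2h3b and Hist2h3c1 of H3, and Hist1h4b. The 48 untested genes held 415 counts in EV_Tm and 367 in PBS_Tm over all libraries of a group, with Hist1h2bh the highest at 63 counts in all.

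**Figure D1:**
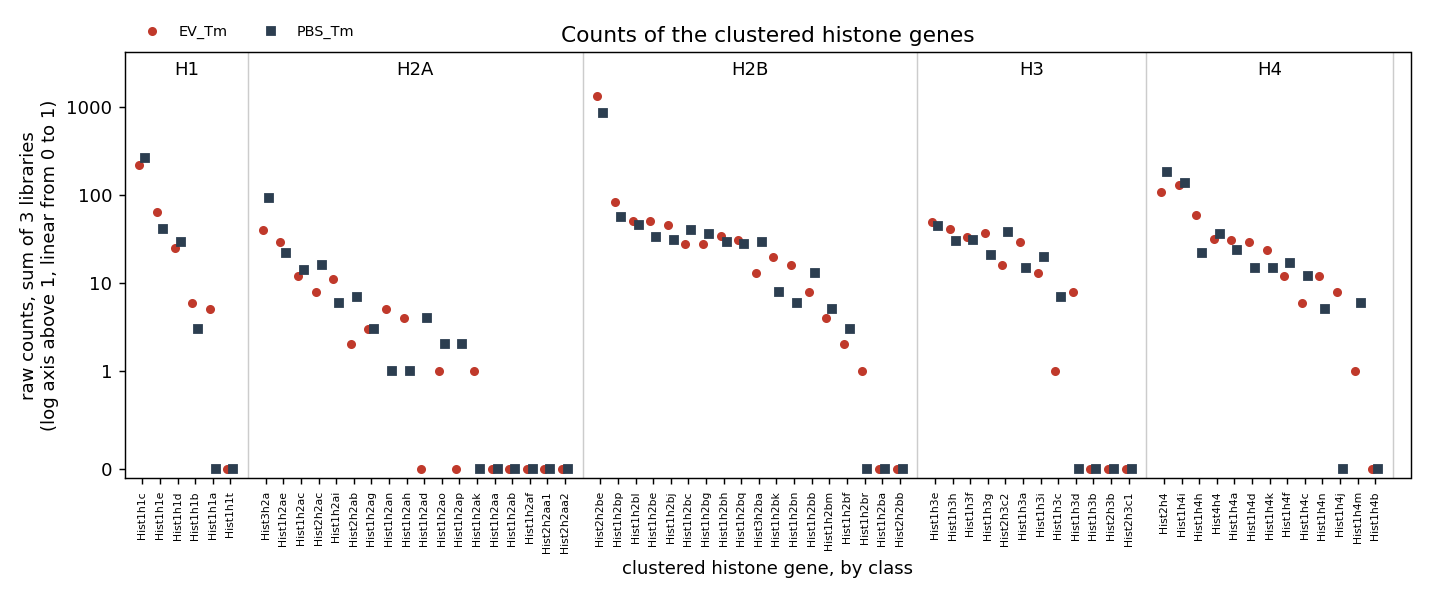
Raw counts of each clustered histone gene, summed over the 3 EV_Tm libraries (circles) and the 3 PBS_Tm libraries (squares), by histone class and in falling order within a class; the vertical axis is linear below 1 and logarithmic above. Hist2h2be, with 1353 counts in EV_Tm and 866 in PBS_Tm, lies above all other members, and most H2A genes lie under 10.

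The classes were unequally represented. In H1, 5 of 6 genes had a count and 2 were tested. In H2A 13 of 18 had a count, but only Hist3h2a was tested, and the other 12 had 1 to 51 counts in all. In H2B 16 of 18 had a count and 7 were tested, in H3 9 of 12 and 5, and in H4 12 of 13 and 4. Per kilobase of gene length, the mean level over the 6 libraries was 4.54 CPM for Hist2h2be, 1.98 for Hist1h4i, 1.67 for Hist1h1c, 1.35 for Hist1h2bl and 1.07 for Hist1h2bp, and every other member lay under 1 CPM per kilobase. On the same scale the H3.3 gene H3f3b was at 159.8 CPM per kilobase, the H2A.Z gene H2afz at 111 and the linker variant gene H1f0 at 70.3.

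The length and the shared sequence of the annotated transcripts are given here as description. The 24 members with more than 200 annotated bases after the coding end held 4262 of the 5310 member counts, and 12 of these members were tested. Hist2h2be alone held 2219 of the 4262 counts. The 43 with 200 or fewer held 1048 counts, and 7 were tested. The median gene length was 1595 bases in the 24 genes and 473 in the 43. The median level per kilobase was 0.205 CPM in the 24 genes and 0.0923 in the 43. Members also share sequence: 61 of 67 had at least one stretch of 100 bases identical, on either strand, to one in a transcript of another gene. That other gene can lie elsewhere or be annotated over the member itself. Exons of 24 of the 67 members overlap those of another gene, and in Hist3h2a all shared stretches (29.8%) are of this kind. The median share of such stretches was 31.1% among the 19 tested members, 32.5% among the 36 counted but not tested and 75.6% among the 12 without counts. Only the medians were close between tested and untested members with counts. Members with most of their stretches shared were 3 of the 19 tested, 16 of the 36 counted but not tested and 9 of the 12 without counts. The median share was 69.9% in H2A, against 0% in Hist2h2be. The part of shared sequence in the counts was not tested. The sources used here do not say how reads with several positions were handled, so values of members with much shared sequence are uncertain.

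**Figure D2:**
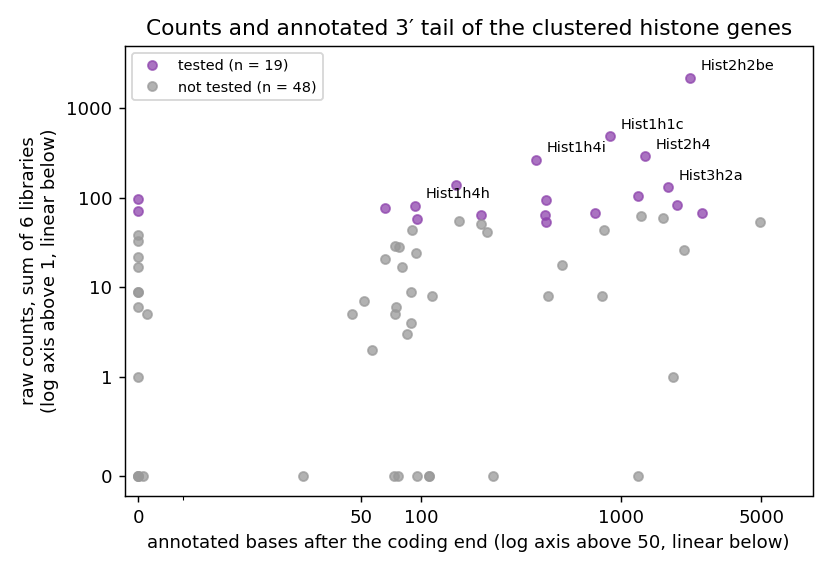
Total raw counts of each member over 6 libraries against the annotated bases after its coding end in the longest such transcript; both axes are linear near 0 and logarithmic beyond. Tested members are coloured and 6 are named; Hist2h2be has 2219 counts and 2192 bases, and 13 members have no annotated base after the coding end.

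H2A and H2B genes often lie back to back and share the region between them. The annotation held 12 such pairs, 175 to 305 bases apart, and in 10 of them the H2B gene had more counts than its H2A partner, in 1 fewer and in 1 both had 0. Over the 12 pairs the H2B genes held 2780 counts and the H2A genes 145. Hist2h2be had 2219 counts and its partner Hist2h2ac 24, while for Hist1h2bp and Hist1h2an it was 140 and 6. The median share of sequence common with other genes was 45.7% for the H2B genes of these pairs and 69.9% for the H2A genes. Exons of another annotated gene overlap those of all 18 H2A members, but of only 2 of the 18 H2B members. The assignment of reads in such overlaps is not known, and its part in these counts was not tested.

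Of the 19 tested members 4 passed the test of EV_Tm against PBS_Tm (quasi-likelihood test of edgeR with p adjusted by Benjamini-Hochberg over all 16844 genes, under 0.05): Hist2h2be and Hist1h4h were higher in EV_Tm, and Hist3h2a and Hist2h4 were lower. That is 10.5% of the tested members in each direction. Of all tested genes, 22.6% were higher and 24.7% lower, 47.4% in either direction. Calls depend on depth: among the 7199 other tested genes with a total of 54 to 2219 counts, the range of the tested members, 25.0% were called, against 21.1% of the members. Hist2h2be alone sets the top of that range. The next highest member, Hist1h1c, had 489 counts and the median tested member 84, so the range extends above the level of the other tested members. EV_Tm and PBS_Tm values were fully separated in the same 4 of 19 members, against 54.5% of all tested genes and 2540 of the 7199 genes in that range. The median log2 fold change (EV_Tm minus PBS_Tm) was 0.14 over the 19 members, with 11 above 0 and 8 below. It was 0.11 over the 7199 genes in that range, 4124 above 0 and 3075 below, and 0.01 over all tested genes.

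Hist2h2be (chromosome 3, 96221119 to 96223738), which encodes a core histone H2B, was the best measured member. It was at 13.5, 14.7 and 15.6 CPM in the EV_Tm libraries, against 9.52, 8.71 and 9.32 CPM in the PBS_Tm libraries. Every EV_Tm value was above every PBS_Tm value. The level was 1.59-fold higher in EV_Tm (log2 fold change 0.67 ± 0.10, SE, edgeR adjusted p = 8.70e-06), and it passed under every alternative run, with log2 fold changes of 0.62 to 0.72. The gene took 46.9% ± 2.05 of all member counts in EV_Tm and 35.7% ± 1.46 in PBS_Tm (SD, n = 3 each). All members together were at 31.2 ± 2.06 CPM in EV_Tm and 25.7 ± 0.659 CPM in PBS_Tm, but without Hist2h2be the other 66 summed to 16.6 ± 1.35 CPM in EV_Tm and 16.5 ± 0.586 CPM in PBS_Tm.

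The other 3 calls rest on few counts. Hist1h4h (chromosome 13, 23531050 to 23531519), which encodes histone H4, had 17, 22 and 21 raw counts in EV_Tm and 10, 8 and 4 in PBS_Tm. Its 3 EV_Tm values lay above its PBS_Tm values, with means of 0.652 ± 0.106 CPM in EV_Tm and 0.234 ± 0.0985 CPM in PBS_Tm (SD, n = 3 each). This was a 2.75-fold difference (log2 1.46 ± 0.52 SE, with an edgeR adjusted p of 0.0221). The call was lost when EV_Tm replicate 2 or 3 or PBS_Tm replicate 2 or 3 was left out (adjusted p of 0.0932, 0.0611, 0.05 and 0.107).

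Hist3h2a (chromosome 11, 58954685 to 58956830), an H2A gene of the Hist3 locus, had 16, 11 and 13 raw counts in EV_Tm and 27, 33 and 33 in PBS_Tm. Its EV_Tm values, 0.379 to 0.514 CPM, all lay below its PBS_Tm values of 0.848 to 1.09 CPM. It was 2.27-fold lower (log2 fold change -1.19 ± 0.41, SE, edgeR adjusted p = 0.0186). Leaving out EV_Tm replicate 2 or 3 or PBS_Tm replicate 2 or 3 ended the call (adjusted p of 0.0654, 0.0597, 0.0672 and 0.0504). Its exons overlap those of Trim17, which had 32, 33 and 26 counts in EV_Tm and 33, 23 and 41 in PBS_Tm, and the assignment of reads in the overlap is not known.

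Hist2h4 (chromosome 3, 96261682 to 96263311), the H4 gene of the Hist2 cluster, had 32, 36 and 40 raw counts in EV_Tm and 58, 51 and 75 in PBS_Tm. The means were 1.17 ± 0.123 CPM in EV_Tm and 1.95 ± 0.339 in PBS_Tm (SD, n = 3 each), without overlap. The log2 fold change was -0.74 ± 0.28 (SE, edgeR adjusted p = 0.0352). The call was lost without EV_Tm replicate 1, 2 or 3 or PBS_Tm replicate 3 (adjusted p of 0.105, 0.0563, 0.0565 and 0.147). No stretch of 100 bases of Hist2h4 occurs in another gene's annotated transcript, while 38.5% of those of Hist1h4h do. The 2 H4 genes that passed thus went opposite ways, and the H4 genes summed to 4.91 ± 0.915 CPM in EV_Tm and 5.04 ± 0.616 in PBS_Tm (SD, n = 3 each).

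**Figure D3:**
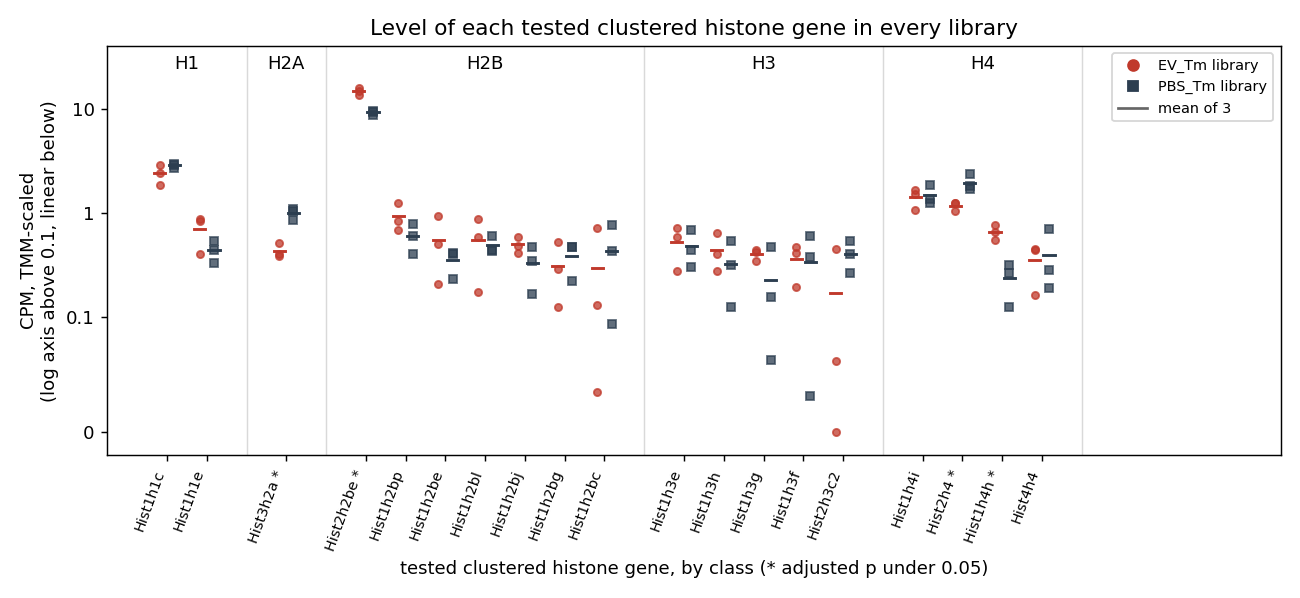
Level of the 19 tested members in every library, in CPM scaled by TMM, on an axis that is linear below 0.1 and logarithmic above, with EV_Tm (circles) left of PBS_Tm (squares) and a bar at the mean of 3. Asterisks mark the 4 members that passed; their groups do not overlap, while those of the 15 others do.

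In the remaining 15 tested members the groups overlapped and the adjusted p (edgeR) ran between 0.187 and 0.911. Their standard errors were 0.22 to 0.73 on the log2 scale, so these values show neither a change nor its absence.

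Among the H1 genes, Hist1h1c, a somatic linker histone gene, had 89, 54 and 78 raw counts in EV_Tm and 94, 87 and 87 in PBS_Tm, which gave -0.26 ± 0.22 in log2 (SE, with an edgeR adjusted p of 0.367). Hist1h1e had 26, 25 and 13 counts in EV_Tm and 14, 10 and 17 in PBS_Tm, and its exons overlap those of Hist1h2be on the same strand. The summed level of the H1 class was 3.47 ± 0.642 CPM in EV_Tm and 3.62 ± 0.197 in PBS_Tm (SD, n = 3 each).

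Of the 6 further tested H2B genes, Hist1h2bp, Hist1h2be, Hist1h2bj and Hist1h2bl had fold changes above 0 (log2 0.63, 0.64, 0.59 and 0.16) and Hist1h2bg and Hist1h2bc below (-0.32 and -0.51), none of them past the test. The value of Hist1h2be was 0.02 without EV_Tm replicate 1 and 1.02 without EV_Tm replicate 2. The 17 H2B genes other than Hist2h2be summed to 4.49 ± 0.517 CPM in EV_Tm and 3.84 ± 0.475 in PBS_Tm (SD, n = 3 each). Hist1h2bc varied widely within both groups, with 4, 1 and 23 raw counts in EV_Tm and 24, 13 and 3 in PBS_Tm. In Hist1h2bl 62.1% of the stretches of 100 bases also occur in another gene's annotated transcript.

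Of the 5 H3 genes tested, 4 had fold changes above 0, among them Hist1h3g (log2 0.82 ± 0.61 SE, with an edgeR adjusted p of 0.292) and Hist1h3h (0.46, adjusted p = 0.536). Hist1h3g was at 1.82 without PBS_Tm replicate 2 and at 0.37 without PBS_Tm replicate 1 (adjusted p of 0.0636 and 0.693). Hist2h3c2 had 14, 0 and 2 raw counts in EV_Tm and 17, 8 and 13 in PBS_Tm, and its fold change of -1.20 ± 0.73 (log2, SE) did not pass (edgeR adjusted p = 0.187). EV_Tm replicate 1 lay apart from the other EV_Tm libraries in this gene, and without it the gene passed in edgeR (log2 fold change -3.48, adjusted p = 0.00781). Without EV_Tm replicate 2, EV_Tm replicate 3 or PBS_Tm replicate 1 it was at -0.66, -0.80 and -0.95 (adjusted p of 0.519, 0.481 and 0.426). In Hist2h3c2 61.6% of the stretches of 100 bases also occur in another gene's annotated transcript, and in Hist1h3h 92.0%. Their values are uncertain for this reason. The H3 class summed to 2.43 ± 0.723 CPM in EV_Tm and 2.21 ± 0.424 in PBS_Tm, and the H2A class to 1.25 ± 0.165 CPM in EV_Tm and 1.81 ± 0.0908 in PBS_Tm (SD, n = 3 each), of which Hist3h2a made up 0.432 CPM in EV_Tm and 0.989 CPM in PBS_Tm. Among the H4 genes that did not pass, Hist1h4i had 33, 44 and 53 raw counts in EV_Tm and 39, 41 and 59 in PBS_Tm, and Hist4h4 had 5, 13 and 14 in EV_Tm and 9, 21 and 6 in PBS_Tm.

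The replacement variants outside the clusters were counted far more deeply. The 14 listed genes summed to 1317 ± 10.5 CPM in EV_Tm and 1269.5 ± 38.4 in PBS_Tm (SD, n = 3 each). Of 12 tested, 50% were called, against 47.4% of all tested genes. H3f3a, H2afv, Cenpa, H1foo and H2afj rose, H1f0 fell and 6 did not pass (median log2 fold change 0.12). H3f3a, one of the pair of H3.3 genes, was at 127 ± 3.62 CPM in EV_Tm and 69.1 ± 2.79 in PBS_Tm (SD, n = 3 each, edgeR adjusted p = 1.39e-13), while the other, H3f3b, at 489.8 ± 9.30 CPM in EV_Tm and 461 ± 12.2 CPM in PBS_Tm, did not (edgeR adjusted p = 0.0587, and 0.0062 when scaled by library size alone). H1f0, the linker variant of slowly dividing cells, was 1.91-fold lower in EV_Tm, at 99.4 ± 3.68 CPM against 189.6 ± 6.96 CPM in PBS_Tm. For H2afz, the H2A.Z gene, the log2 fold change was -0.03 ± 0.05 (SE, with an edgeR adjusted p of 0.67), with its sign turned (0.01) when scaled by library size alone. Cenpa, the centromeric H3, was 1.25-fold higher.

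**Figure D4:**
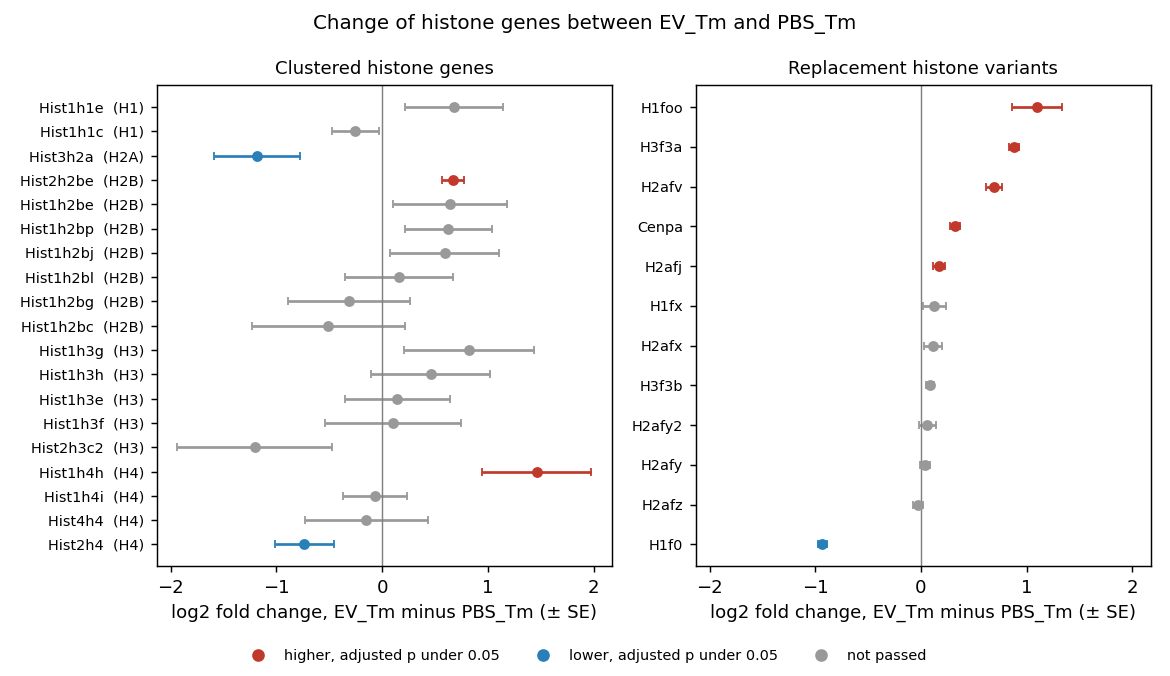
Log2 fold change (EV_Tm minus PBS_Tm) with its standard error for the 19 tested clustered histone genes, by class, and for 12 replacement variants. Red marks genes higher and blue genes lower in EV_Tm at an adjusted p under 0.05; the standard errors of most clustered genes, up to 0.73, are several times those of the variants.

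Genes that make, process and degrade histone mRNA were well measured. Among 30 such genes there were 13 that rose and 7 that fell, while 10 did not pass (median log2 fold change 0.09). That is 66.7% called, against 47.4% of all tested genes. Calls depend on depth, and no share was computed for other genes counted as deeply as this list. Slbp, the stem-loop binding protein, was at 53.2 ± 1.08 CPM in EV_Tm and 35.8 ± 1.62 in PBS_Tm (SD, n = 3 each), 1.49-fold higher (edgeR adjusted p = 3.06e-08). Npat, the coactivator of histone genes, rose with a log2 fold change of 0.19 ± 0.07 (SE; adjusted p of edgeR 0.0219). It did not pass without EV_Tm replicate 1 or 2 or PBS_Tm replicate 1 or 2 (adjusted p 0.167, 0.0791, 0.135 and 0.128). Ccne2, a cyclin of S phase entry, was 1.66-fold higher, and Ncbp1, the large cap-binding subunit, 1.37-fold lower. Tut4 and Tut7, enzymes that add uridines to RNA ends, did not pass.

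Among 27 histone chaperones and assembly factors 14 rose, 7 fell and 6 missed the threshold (median log2 fold change 0.12). That is 77.8% called, against 47.4% of all tested genes, which include genes with few counts. Nasp, a chaperone of H3-H4 and H1, was 1.44-fold higher at 163 ± 7.39 CPM in EV_Tm against 113 ± 4.22 in PBS_Tm (SD, n = 3 each), Rbbp4 was 1.24-fold higher, and Set 1.40-fold lower. In the list of 37 genes for S phase and DNA synthesis 24 rose, while Dbf4, Cdc45, Cdc6, Rfc4 and Ung fell (78.4% called, median log2 fold change 0.24). Rrm2, a subunit of ribonucleotide reductase, was 1.90-fold higher, the helicase subunits Mcm5 and Mcm3 1.73-fold and 1.55-fold, and Pcna, the sliding clamp, 1.56-fold. In the list of 18 genes for G2 and mitosis 9 rose, among them Cdk1, Mki67 (1.42-fold) and Cenpf (1.36-fold), while Cdc25c and Cdc20 fell (61.1% called, median 0.17). Their part in the values of the clustered histone genes was not tested.

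**Figure D5:**
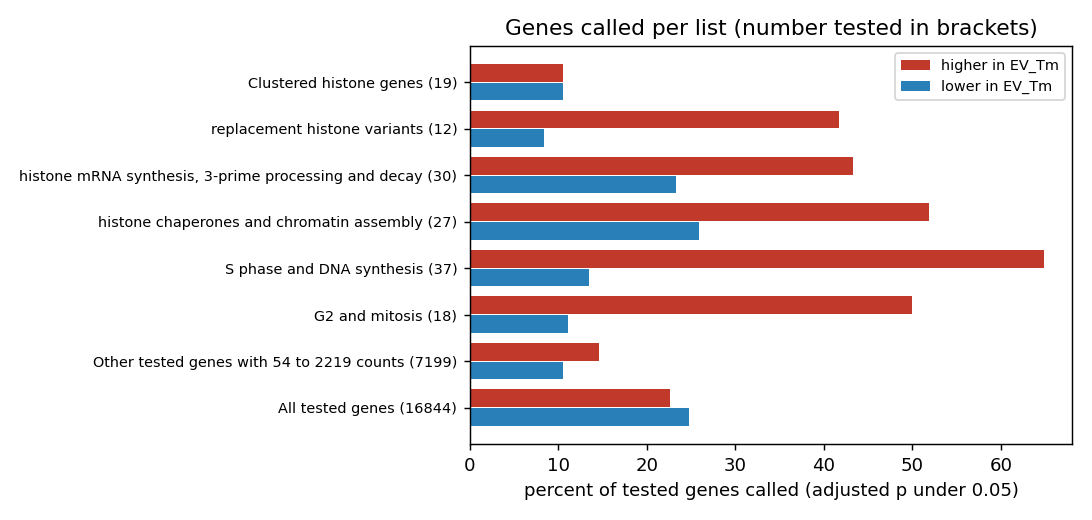
Percent of tested genes called higher (red) or lower (blue) in EV_Tm for the clustered histone genes, 5 related lists, the other tested genes with 54 to 2219 counts in all, and all tested genes. The clustered genes have 10.5% in each direction, and the S phase list 64.9% higher and 13.5% lower.

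Promoter sequences from RefSeq (GRCm38.p6, from 250 bases before to 50 after the start) were found for 61 of the 67 members, and were searched on both strands for 5 motifs, with matches counted whether or not they overlapped another motif. ATTTGCAT, the octamer that POU2F1 binds in human H2B promoters, stood in 7 of 16 H2B and 7 of 17 H2A promoters, in none of the H1, H3 and H4 promoters, and in 1.75% of the 27025 promoters of all genes. Promoters of H2A and H2B genes that lie back to back can overlap, as those of Hist1h2ae and Hist1h2bg do. The same match can then be counted in both classes. GGTCCG, the core of an element known from human H4 promoters, stood in 11 of 12 H4 promoters against 8.39% of all. AAACACA, a motif known from H1 promoters, stood in 5 of 6 H1 promoters against 7.14% of all. CCAAT was in every H1, H2A, H2B and H3 promoter searched (6, 17, 16 and 10), in 3 of 12 H4 promoters and in 37.9% of all, and TATAAA in 35 of 61 member promoters and 14.2% of all. The sequences below are shown for the region between Hist2h2ac and Hist2h2be, read from the Hist2h2ac side, and for Hist3h2a and Hist1h4h, which passed the test between the groups in opposite directions. Capitals mark the motif matches.
Hist2h2ac (chr3:96220831-96221130, - strand): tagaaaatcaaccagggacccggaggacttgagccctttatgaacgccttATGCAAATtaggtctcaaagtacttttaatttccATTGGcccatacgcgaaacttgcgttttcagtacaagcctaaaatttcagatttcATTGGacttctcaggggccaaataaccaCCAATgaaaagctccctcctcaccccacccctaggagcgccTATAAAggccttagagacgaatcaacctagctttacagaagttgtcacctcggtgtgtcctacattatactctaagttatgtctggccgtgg
Hist3h2a (chr11:58954435-58954734, + strand): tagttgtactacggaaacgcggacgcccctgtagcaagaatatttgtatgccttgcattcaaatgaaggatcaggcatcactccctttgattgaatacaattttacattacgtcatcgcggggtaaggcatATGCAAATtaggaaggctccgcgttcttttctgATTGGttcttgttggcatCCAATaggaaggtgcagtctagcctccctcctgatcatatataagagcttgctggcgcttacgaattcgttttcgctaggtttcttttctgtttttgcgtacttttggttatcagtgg
Hist1h4h (chr13:23530794-23531093, + strand): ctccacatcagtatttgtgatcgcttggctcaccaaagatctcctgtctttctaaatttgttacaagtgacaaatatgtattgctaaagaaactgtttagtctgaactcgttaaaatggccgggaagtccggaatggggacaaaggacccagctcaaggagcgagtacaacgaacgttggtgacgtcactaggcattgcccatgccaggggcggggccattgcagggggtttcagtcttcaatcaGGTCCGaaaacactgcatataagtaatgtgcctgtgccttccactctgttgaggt
The promoter of Hist3h2a holds an octamer and CCAAT boxes, and so does the region in front of Hist2h2be. Whether these motifs bear on the change between the groups was not tested. A match is a description of the letters and not of binding.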

How the data were processed

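Counts per gene from bulk RNA-seq were used for 6 libraries in 2 groups of 3, taken from the sample titles. The authors deposited raw counts without normalization. HISAT2 2.2.1 aligned the adaptor-trimmed reads, per the labels' protocols. The submitters' processing notes name featureCounts 2.0.6 and the build mm39. The start and end of all 67 members in the deposited table, whose other values are gene positions and lengths in bases, equal those of GENCODE M21, so coordinates are read as GRCm38. The sources used here give no strand setting or treatment of multi-position reads.

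The table was fitted whole with edgeR 4.0.16 in R 4.3.3 (TMM factors, filterByExpr, quasi-likelihood F test, two-sided, Benjamini-Hochberg over 16844 genes). The SE is the fold change divided by the square root of F, and CPM of members use the TMM-scaled library size. The script was tested on simulated data with known changes. Libraries of a group differed by more than sampling noise (mean chi-square per gene 3.66 to 7.56), so all 6 were kept. The members, lists and tests were chosen with earlier results of these data known, and the searches of transcripts and shared sequence after the counts had been seen. Named were all members that passed, the 4 tested members per class with the most counts per kilobase, the 3 genes per list with the smallest p, Slbp, Npat, H2afz, H3f3b and Pcna, and genes of a direction with 5 or fewer calls. Hist1h2be, Hist1h2bg, Hist1h2bc, Tut4, Tut7 and untested genes were named after their values were seen. Alternatives were scaling by library size alone or by the size factors of DESeq2, dropping the filter, at least 1 CPM in 3 libraries, tests with limma-voom (limma 3.58.1) and DESeq2 1.42.0, the replicate number as a block, each library left out, an adjusted p under 0.01 and protein-coding genes only.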

Additional observations from a re-analysis of the deposited data

Results flagged for a closer look

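Hist1h2aj, an unprocessed pseudogene of the Hist1 cluster and no member, had 6, 2 and 3 raw counts in EV_Tm (11 in all) and 0, 1 and 0 in PBS_Tm. It stands here because counts appeared outside the protein-coding genes in EV_Tm above the level in PBS_Tm. It had too few counts to be tested. The 2 other rows of the same name pattern that are not protein-coding, Hist1h2al and Hist3h2bb-ps, had 50 and 8 counts in EV_Tm and 65 and 18 in PBS_Tm.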

How the results depend on the processing

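Hist2h2be was called higher under all 15 alternatives. With a minimum of 1 CPM in 3 libraries 4 members were tested and 1 rose and 1 fell (Hist1h4h and Hist3h2a were no longer tested), and at an adjusted p under 0.01 1 rose and 0 fell. With 1 library left out, 1 to 2 members rose and 0 to 2 fell. The same 4 members passed when scaled by library size alone or by DESeq2, without a filter (55 members fitted), in the DESeq2 test, without PBS_Tm replicate 1, with protein-coding genes only and the replicate block, and limma-voom added Hist2h3c2 (log2 fold change -2.24, adjusted p of 0.0268). Same-numbered libraries did not deviate together (correlations -0.04, 0.02 and -0.01), so the replicate block (7737 genes called: 3679 higher, 4058 lower; 2 members higher, 2 lower) is given only here. Reversed signs all concerned genes that did not pass: H2afz (0.0134 with library size alone, 0.0105 with protein-coding genes only) and Hist1h2bl (-0.0761 with limma-voom). With 1 library left out, log2 fold changes ran from -0.0635 to 0.0105 for H2afz, -0.363 to 0.561 for Hist1h2bl, -0.197 to 0.119 for Hist1h4i, -0.489 to 0.547 for Hist4h4, -0.443 to 0.788 for Hist1h3f, -0.147 to 0.497 for Hist1h3e, -0.889 to 0.0671 for Hist1h2bg and -2.31 to 0.191 for Hist1h2bc; the cause was not tested. H3f3b passed with library size alone, the stricter filter, DESeq2, limma-voom and protein-coding genes only. The 50 class totals recomputed moved by less than the spread between replicates. At the counts these libraries hold, 48 of 67 members could not be tested; why their counts were low was not tested.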
